A study of Mus musculus with 12 samples.

Results

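The genes of the proteasome were followed in mouse embryonic fibroblasts (MEFs) with and without RTF2, a protein of the replisome. The set comprised every gene in the deposited count table whose mouse symbol begins with Psm, a letter from a to g and a digit, with pseudogenes left out, and the rule itself used no measured value. It held 51 of the 24100 genes listed. All 51 passed the filter on low counts, and 14263 genes in all were tested. Wild-type (WT, Rtf2+/+) and RTF2-deficient (Rtf2-/lox) MEFs of 2 lines were compared, with 3 libraries in each of the 4 groups. According to the methods of the study the cells came from littermate embryos at embryonic day 13.5, the lines came from different mothers, and the cells were immortalized with SV40 large T antigen. All groups, WT included, had received Cre recombinase by retrovirus 72 hrs before harvest, so Cre excised the floxed allele only where there was one. The study calls the 3 libraries of a group technical replicates, and p-values therefore measure the spread between libraries of 1 cell population, while the spread between embryos is sampled by 2 lines alone.

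The proteasome degrades proteins that carry ubiquitin. Its core particle, the 20S proteasome, is a barrel of stacked alpha and beta rings with the active sites on the inner face of the beta rings, and the 19S regulatory particle caps the barrel, binds ubiquitinated substrates, removes the ubiquitin and unfolds the chain with a ring of ATPases. Dedicated chaperones assemble both particles. Under interferon, cells exchange the catalytic beta subunits for inducible ones and add the PA28 activator, which gives the immunoproteasome known for making peptides for MHC class I. Fibroblasts outside an immune response make mainly the constitutive form.

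The promoters of 43 of the 51 genes were found in RefSeq (GRCm38.p6), as windows of 250 bases before to 50 bases after the start of transcription. Interferon acts on many promoters through the interferon-stimulated response element, whose core was searched as GAAANNGAA, and through the gamma-activated sequence, searched as TTCNNNGAA, each on both strands. A match to the first was held by 7 of the 43 genes, at any of their starts, and by 8.56% of all 32851 promoters. The second was held by 3 of the 43 genes and by 8.30% of all promoters. A gene with several starts has more chances of a match, so shares by gene and by promoter are not alike. By role, the first was held by 2 of 4 genes of the constitutive beta ring and by 1 of 5 of the immunoproteasome. The second was held by 0 of 4 and by 1 of 5. The other genes with a match, not shown, were no immunoproteasome genes. Stretches are shown for the 2 immunoproteasome genes that held a match and for Psmg4, the gene with the largest difference between genotypes among the members called in both lines together, with the match in capitals.
Psmb8, chr17:34198088-34198117, + strand, GRCm38.p6: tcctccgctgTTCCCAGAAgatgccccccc
Psme1, chr14:55578494-55578523, + strand, GRCm38.p6: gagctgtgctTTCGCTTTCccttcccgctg
Psmg4, chr13:34162969-34162998, + strand, GRCm38.p6: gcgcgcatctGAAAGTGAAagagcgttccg
The match of Psmb8 began 97 bases before the start, that of Psme1 11 bases after it on the opposite strand, and that of Psmg4 16 bases after it. A match is a description of letters and was not tested for binding, and the promoters of Psmb9, Psmb10 and Psme2 held neither motif in this window.

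Counts summed to 39360167 to 44695002 per library, so 3 counts corresponded to between 0.0671 and 0.0762 CPM (counts per 1000000 counts of the library, scaled by the TMM method). Rtf2, the targeted gene, had 44.8 to 57.8 CPM in the 6 WT libraries and 5.44 to 6.66 CPM in the 6 RTF2-deficient libraries, as the labels state. The fibroblast markers Col1a1 and Col1a2 were high in every library, at 4849 to 9494 CPM for Col1a1, whereas the leukocyte marker Ptprc had at most 0.122 CPM. WT line 2 differed from the other groups in sex-linked genes, with 91.8 to 107 CPM of the Y-linked Ddx3y against at most 0.195 CPM in the other 9 libraries. Embryo sex and genotype therefore cannot be told apart in line 2. An interferon score was calculated as the median log2 CPM of 16 interferon-stimulated genes. It was 1.36 to 4.31 in WT line 1, 1.498 to 2.58 in RTF2-deficient line 1, 5.37 to 8.80 in WT line 2 and 3.25 to 7.31 in RTF2-deficient line 2. The highest scores of the latter groups were those of WT line 2 replicate 1 (8.80, against 6.95 and 5.37) and RTF2-deficient line 2 replicate 3 (7.31, against 4.24 and 3.25).

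Constitutive proteasome genes were highly transcribed and their levels lay close together. Per kb of transcript, the 7 alpha ring genes had mean levels of 51.2 (Psma2) to 136 (Psma4) CPM, the 7 constitutive beta ring genes 82.8 (Psmb1) to 149 (Psmb6) CPM, and the 6 ATPases of the 19S particle 80.4 (Psmc6) to 142 (Psmc3) CPM. The 11 other subunits of the 19S particle spread more widely, from 36.4 CPM per kb for Psmd11 of the lid to 205 CPM per kb for Psmd8, also of the lid. Assembly chaperones lay below the subunits they assemble. Their levels ran from 6.996 CPM per kb for Psmg4 to 21.5 CPM per kb for Psmg2. Of the activators, Psme3, the nuclear PA28 gamma, had 51.7 CPM per kb, and Psmf1, a proteasome inhibitor, had 8.97 CPM per kb.
The inducible catalytic subunits lay below every constitutive subunit, at 1.40 CPM per kb for Psmb9, 8.45 CPM per kb for Psmb8 and 9.90 CPM per kb for Psmb10, averaged over the 12 libraries. Psmb11, the thymus-specific catalytic subunit, was near the floor with 0.239 to 0.565 CPM. Psma8, the alpha subunit of the testis, had at most 1.32 CPM and passed the filter only through WT line 2. Transcript lengths were those of GENCODE M21 and were found for 50 of the 51 genes. Psmc3ip, a factor of meiotic recombination, and Psme3ip1, a partner of Psme3, fitted the symbol rule without being subunits.

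**Figure D1:**
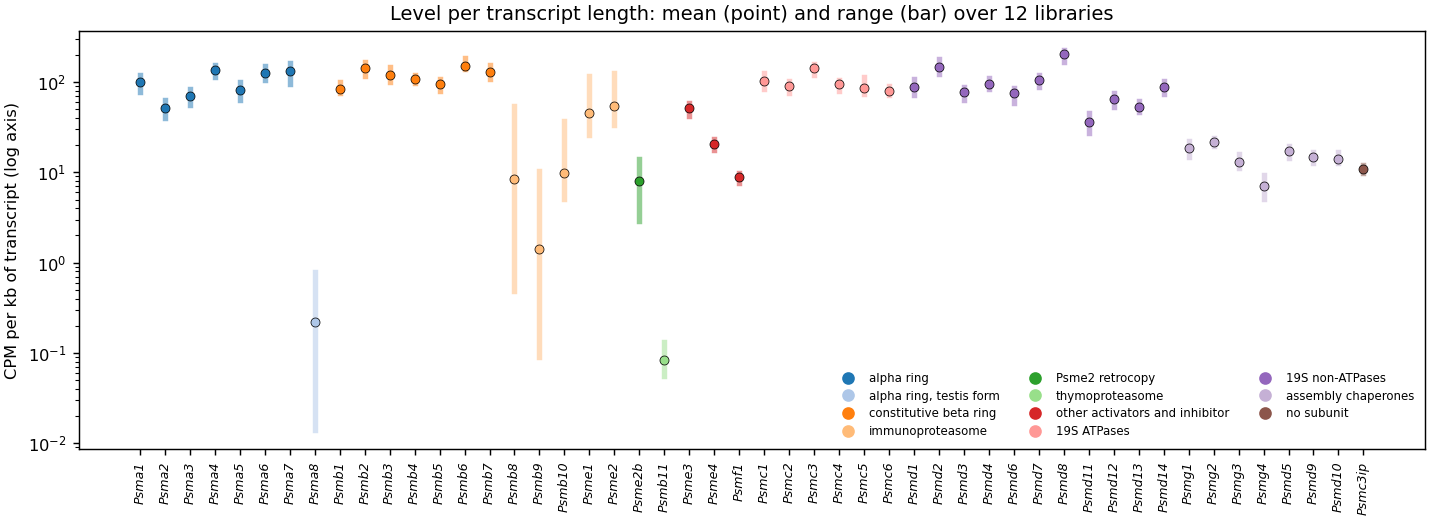
Mean level (point) and range over the 12 libraries (bar) of 50 proteasome genes in CPM per kb of transcript on a log axis, coloured by role. Core and 19S genes lie between 36.4 and 205 CPM per kb on average, and the bars of Psmb8, Psmb9 and Psma8 are the longest.

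The constitutive genes varied between libraries about as much as a typical gene. For the 31 genes of the core and the 19S particle, the highest of the 12 libraries exceeded the lowest by 1.23 to 1.71 times, and the median coefficient of variation within a group was 11.1%, against 11.6% over all genes tested. The immunoproteasome genes spread over a wider range. Their highest library exceeded the lowest by 3.75 times for Psme2, 4.53 times for Psme1, 7.27 times for Psmb10, 112 times for Psmb8 and 117 times for Psmb9, and their median coefficient of variation within a group was 34.0%.

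Most proteasome transcripts lay near their WT level in RTF2-deficient MEFs. In both lines together, 3 of the 51 members fell and 0 rose in the absence of RTF2 (edgeR's quasi-likelihood test, Benjamini-Hochberg adjusted p under 0.05). The 3 were Psmc5, Psmg3 and Psmg4. Members called lower thus made up 5.88% of the set, where 8.18% of all genes tested were lower and 4.98% were higher. None passed a log2 fold change beyond 1, which 1.72% of all genes passed in either direction. At an unadjusted p under 0.05 the members numbered 6 lower and 2 higher, against 28.5% of all genes in either direction, and DESeq2 called 4 lower and 1 higher at its adjusted p, adding Psme1 and Psmd9, against 19.3%. In size, the log2 fold change had a median of 0.09 over the 51 genes and 0.15 over all genes. With the 3 libraries of each group summed to 1 sample, no gene of the whole table was called and no member was.

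**Figure D2:**
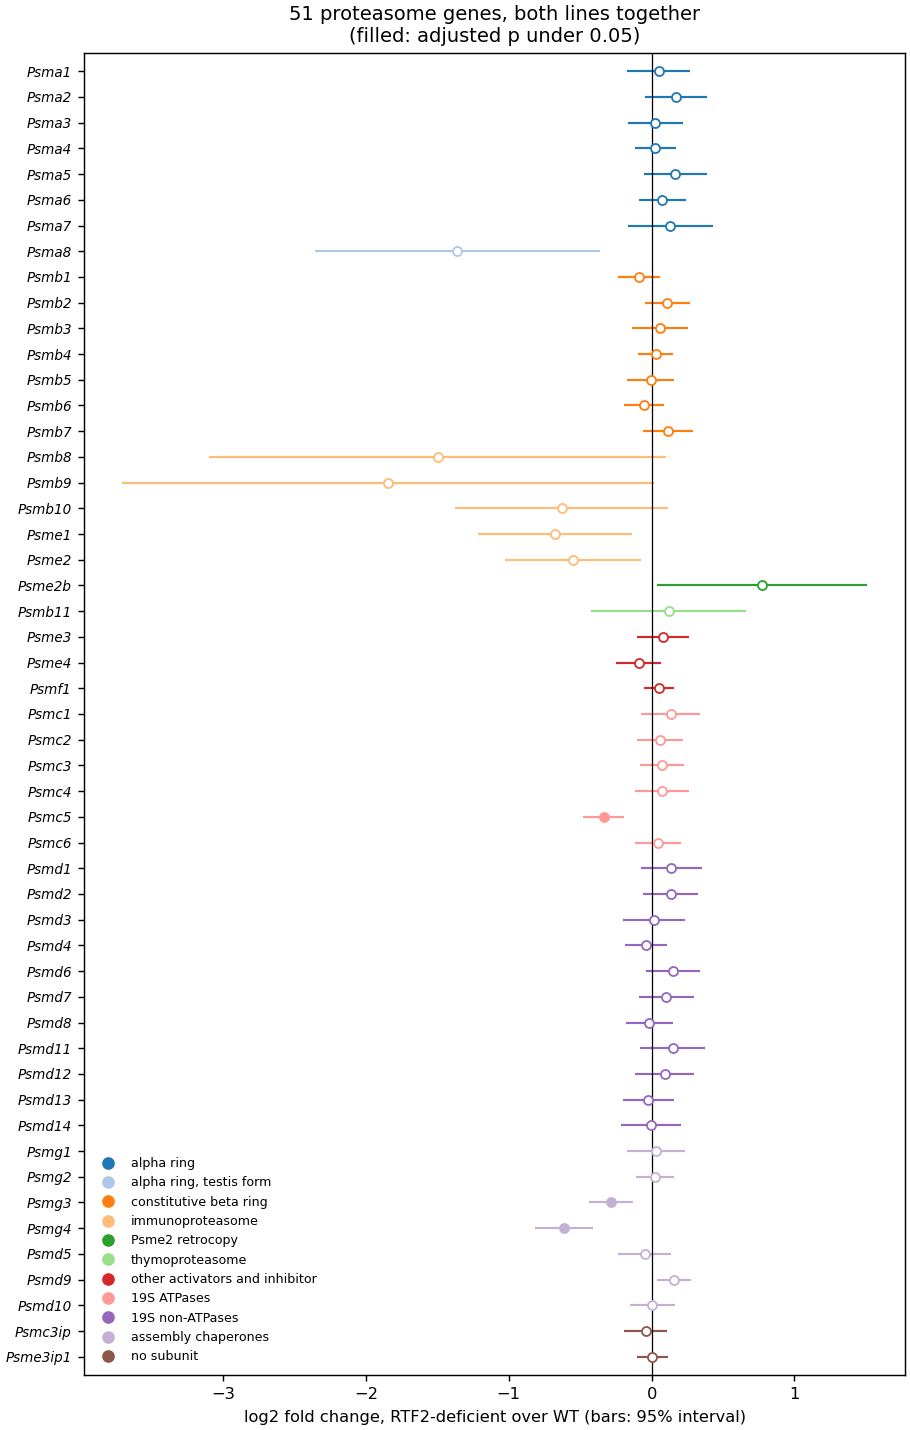
Log2 fold change of the 51 proteasome genes between RTF2-deficient and WT MEFs of both lines together, with the 95% interval as a bar and colour by role. Filled points mark the 3 genes with an adjusted p under 0.05 (Psmc5, Psmg3 and Psmg4), and the core and 19S genes other than Psmc5 lie between -0.09 and 0.17.

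Of the 31 constitutive core and 19S genes, 1 was lower and 0 were higher, and their log2 fold changes had a median of 0.06, against 0.00 over all genes tested. A value above 0 was found in 23 of the 31 (74.2%), against 50.4% of all genes. All 7 alpha ring genes had values above 0, between 0.03 (Psma3) and 0.17 (Psma2), and none passed the test in edgeR or DESeq2. The constitutive catalytic subunits lay at -0.01 for Psmb5 (standard error 0.08, adjusted p = 0.96, chymotrypsin-like site), -0.05 for Psmb6 (standard error 0.07, adjusted p = 0.63, caspase-like site) and 0.11 for Psmb7 (standard error 0.08, adjusted p = 0.38, trypsin-like site). The sign of Psmb5 turned under several alternatives, to at most 0.04. The 95% intervals of the core and 19S genes reached no further than -0.48 (Psmc5) and 0.43 (Psma7). Among the 31, Psmc5 alone had an unadjusted p under 0.05, and it alone was called by DESeq2.

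Psmc5 encodes an ATPase of the 19S ring. In line 1 it had 109, 120 and 136 CPM in the WT libraries and 97.9, 98.9 and 101 CPM in the RTF2-deficient libraries. In line 2 it had 117, 147 and 131 CPM in WT and 107, 97.2 and 99.7 CPM in RTF2-deficient MEFs. The 6 RTF2-deficient values, at most 107 CPM, did not overlap with the 6 WT values, at least 109 CPM. Such a separation below WT was found for 2 of the 51 members, Psmc5 and Psmg4, and for 4.41% of all genes tested. The log2 fold change was -0.34 (standard error 0.07; edgeR's adjusted p = 0.0065), with -0.29 in line 1 (adjusted p = 0.17) and -0.38 in line 2 (adjusted p = 0.026). The other 5 ATPases had values between 0.05 (Psmc6) and 0.13 (Psmc1), and none was called. The ATPases form 1 ring with a single copy of each, so Psmc5 stood apart from its partners in direction, though the difference between Psmc5 and the other ATPases was not tested.
The call of Psmc5 in line 2 was lost without WT line 2 replicate 2 or 3 or without any 1 of the RTF2-deficient line 2 libraries, with log2 fold changes between -0.42 and -0.29, and in the fit of line 2 alone. Psmc5 spans 106256185 to 106263112 of chromosome 11 in RefSeq (GRCm38.p6), and by GENCODE M21 it lies between genes on the opposite strand, 74 bases from Ftsj3 and 58 bases from Smarcd2. Smarcd2 was lower by a smaller amount, with a log2 fold change of -0.15 (adjusted p = 0.047 in edgeR's test), and Ftsj3 had -0.14 (adjusted p = 0.38). Whether the counting used strand is not given in the sources used here, and a part of shared reads in these values was not tested.

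Psmg4 and Psmg3 encode the partners of 1 chaperone, a heterodimer that helps to build the alpha ring, and both were lower. Psmg4 had 3.94, 4.86 and 4.54 CPM in WT line 1 and 3.20, 2.85 and 3.12 CPM in RTF2-deficient line 1. The line 2 values were 5.23, 5.01 and 4.61 CPM in WT and 3.18, 2.80 and 3.28 CPM in RTF2-deficient MEFs. The genotypes did not overlap in the 12 libraries, at 109 to 145 counts without RTF2 against 165 to 241 with it. The log2 fold change was -0.61 (standard error 0.09; edgeR's adjusted p = 0.0012), with -0.54 in line 1 (adjusted p = 0.054) and -0.68 in line 2 (adjusted p = 0.0075). DESeq2 called Psmg4 in line 1 as well. The nearest gene, Slc22a23, lies 984 bases away on the opposite strand and rose, by 0.83 on the log2 scale (adjusted p = 0.0024).
Psmg3 had 12.6, 13.3 and 13.5 CPM in WT line 1 and 10.4, 10.6 and 10.9 CPM in RTF2-deficient line 1. Line 2 had 10.53, 13.98 and 11.9 CPM in WT and 10.2, 10.3 and 9.81 CPM in RTF2-deficient MEFs. The groups did not overlap within a line, but RTF2-deficient line 1 replicates 2 and 3 lay above WT line 2 replicate 1. The share of all genes that separate so within a line was not counted. With 3 against 3 libraries of the WT lines, 15.1% of all genes separated in 1 direction. The log2 fold change was -0.29 (standard error 0.07; edgeR's adjusted p = 0.020), with -0.30 in line 1 (adjusted p = 0.17) and -0.27 in line 2 (adjusted p = 0.12). Psmg3 lies on chromosome 5 (139823613 to 139826894) and shares 2816 bases on the same strand with the annotated gene Gm26938, so reads could have been split between them.
The remaining chaperones gave no call in both lines together. Psmg1 (0.03) and Psmg2 (0.02), the partners of the other alpha ring chaperone, had log2 fold changes near 0. Of the chaperones of the 19S base, Psmd5 had -0.05, Psmd10 (gankyrin) had 0.01 and Psmd9 had 0.16 (adjusted p = 0.079), the last called by DESeq2.

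**Figure D3:**
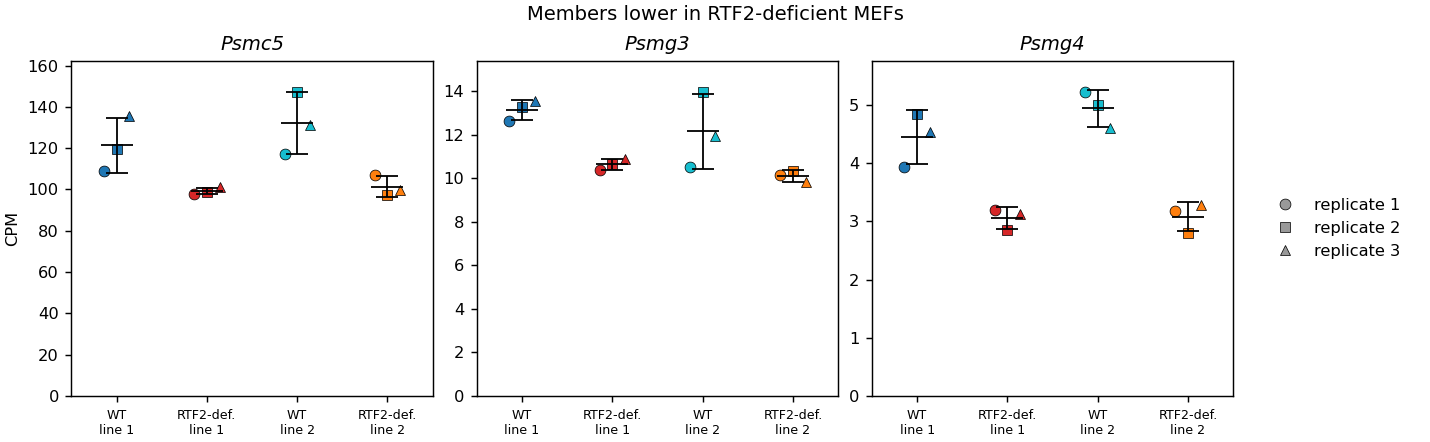
CPM of Psmc5, Psmg3 and Psmg4 in each library (points, shape by replicate number) with the mean and SD of 3 libraries per group (black), on axes that start at 0. RTF2-deficient points lie below the WT points of the same line in each panel, at 2.80 to 3.28 against 3.94 to 5.23 CPM for Psmg4.

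Within line 1, 0 of the 51 genes were called in either direction, against 3.20% of all genes. Unadjusted p-values under 0.05 were found for 4 lower (Psmc5, Psmg3, Psmg4 and Psme4) and 0 higher, against 13.9% of all genes, and DESeq2 called 1 lower and 0 higher, against 6.28%. The count in line 1 depended on the replicate numbers. Libraries of the same number deviated together in the line 1 groups, and with the number as a block in a fit of line 1 alone, a choice made after the data were seen, 8 of 50 members tested were lower and 7 were higher, against 14.7% and 14.4% of all genes. The lower ones were Psmc5 (log2 fold change -0.29, adjusted p = 0.0028 in edgeR's test), Psmg3 (-0.31), Psmg4 (-0.54), Psme1 (-0.33, adjusted p = 0.00073), Psme2 (-0.27, adjusted p = 0.020), Psme4 (-0.22), Psmb1 (-0.14) and Psmd5 (-0.12). The higher ones were Psma2, Psmb2, Psmd1, Psmd6, Psmd11, Psme3 and Psme2b, at 0.10 to 0.16 apart from Psme2b (0.91).
Within line 2, 3 genes were lower and 0 were higher, against 7.03% and 5.42% of all genes. They were Psmc5, Psmg4 and Psma8, and since Psma8 passed the filter on low counts only through WT line 2, where it was high, its call carries no weight in this count. Unadjusted p-values under 0.05 numbered 8 lower and 1 higher there, against 27.8% of all genes, and DESeq2 called 5 lower and 0 higher, against 18.6%. A difference between the lines in the genotype effect was called for 0 members, against 1.29% of all genes, with 1 member (Psma8) at an unadjusted p under 0.05 and 0 by DESeq2, against 8.49% and 2.87%.
The count in line 2 moved with single libraries, and Psmg4 and Psma8 were called with any 1 of them left out. Psmc5 was not called without WT line 2 replicate 3 or RTF2-deficient line 2 replicate 1 or 2, and without WT line 2 replicate 2 Psmd9 was called in its place. The count was 6 without RTF2-deficient line 2 replicate 3, when Psmb8, Psmb9, Psme1 and Psme2 were called lower and Psmc5 was not, against 16.4% of all genes in that fit, and 5 without WT line 2 replicate 1, when Psmg3 was called lower and Psme2b higher, against 10.4%. The last 2 libraries had the highest interferon scores of their groups.

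The immunoproteasome genes were below WT on average in RTF2-deficient MEFs, with a spread between lines and between libraries of 1 group as wide as the difference, and none was called by edgeR in both lines together or in a line without the replicate block. Psmb8, the inducible chymotrypsin-like subunit, had 5.73, 0.991 and 1.74 CPM in WT line 1 and 1.62, 0.785 and 1.56 CPM in RTF2-deficient line 1. In line 2 the values were 88.3, 7.96 and 22.6 CPM in WT and 2.21, 4.41 and 27.3 CPM in RTF2-deficient MEFs. The genotypes overlapped in both lines, and 1 library of each line 2 group held most of its reads. The log2 fold change between genotypes was -1.499 (standard error 0.73; edgeR's adjusted p = 0.20), and it ran from -2.26 without RTF2-deficient line 2 replicate 3 to -0.76 without WT line 2 replicate 1.
Psmb9, the inducible caspase-like subunit, had 0.502, 0.272 and 0.121 CPM in WT line 1 and 0.263, 0.147 and 0.195 CPM in RTF2-deficient line 1. In line 2 it had 14.1, 1.08 and 2.999 CPM in WT and 0.168, 0.282 and 2.62 CPM in RTF2-deficient MEFs. The same libraries were high as for Psmb8, and the line 1 groups rested on 5 to 21 counts per library. The log2 fold change was -1.85 (standard error 0.86, adjusted p = 0.18), with -2.65 and -0.80 when the same libraries were left out in turn. Psmb9 overlaps Tap1 by 212 bases on the opposite strand in GENCODE M21.
Psmb10, the inducible trypsin-like subunit, had 8.02, 7.78 and 7.26 CPM in WT line 1 and 6.66, 6.77 and 6.58 CPM in RTF2-deficient line 1. Line 2 gave 47.9, 11.9 and 15.9 CPM in WT and 8.78, 8.54 and 19.6 CPM in RTF2-deficient MEFs. Its RTF2-deficient libraries lay below the WT libraries in line 1 without overlap and overlapped with them in line 2. How many of all genes separate so in line 1 was not counted. The log2 fold change was -0.63 (standard error 0.34, adjusted p = 0.25), with -0.78 and -0.19 without these libraries.
The genes of the PA28 activator had higher counts and smaller steps between libraries. Psme1 had 46.1, 39.7 and 37.8 CPM in WT line 1, 37.4, 32.2 and 28.7 CPM in RTF2-deficient line 1, 130, 61.8 and 64.2 CPM in WT line 2 and 30.6, 30.7 and 65.1 CPM in RTF2-deficient line 2. Psme2 had 47.3, 38.1 and 35.8 CPM in WT line 1, 34.3, 32.1 and 33.5 CPM in RTF2-deficient line 1, 120, 64.2 and 76.3 CPM in WT line 2 and 33.9, 37.6 and 76.6 CPM in RTF2-deficient line 2. For both, the genotypes did not overlap in line 1 and overlapped in line 2 through RTF2-deficient line 2 replicate 3. The share of all genes that separate so in line 1 was not counted. Between the WT lines, also with 3 against 3 libraries, 15.1% of all genes did so in 1 direction. The log2 fold changes were -0.68 for Psme1 (standard error 0.25, adjusted p = 0.096) and -0.55 for Psme2 (standard error 0.22, adjusted p = 0.12). They ran from -0.82 and -0.70 without RTF2-deficient line 2 replicate 3 to -0.44 and -0.38 without WT line 2 replicate 1. In line 2 the corresponding range was -1.46 to -0.58 for Psme1 and -1.26 to -0.50 for Psme2, and both were called without RTF2-deficient line 2 replicate 3.
All 5 genes thus had values below 0 in both lines together and in each line, and 0 of the 5 passed edgeR's test without the block. In both lines together 2 (Psme1 and Psme2) had an unadjusted p under 0.05 and 1 (Psme1, adjusted p = 0.033) was called by DESeq2, against 28.5% and 19.3% of all genes. In line 2, 4 of the 5 had an unadjusted p under 0.05, against 27.8% of all genes. DESeq2 called Psme1 (adjusted p = 0.013) and Psme2 (adjusted p = 0.037) there, against 18.6% of all genes. Their differences between the lines were -0.54 for Psme2 to -1.99 for Psmb9, none called. Without RTF2-deficient line 2 replicate 3 the log2 fold change in line 2 was -3.56 for Psmb8 (adjusted p = 0.043 in edgeR's test) and -4.72 for Psmb9 (adjusted p = 0.018), and without WT line 2 replicate 1 it was -0.43 for Psmb8 (adjusted p = 0.84) and -0.97 for Psmb9 (adjusted p = 0.57). In line 1, without WT line 1 replicate 1, the log2 fold change of Psmb8 was -0.04 and that of Psmb9 was 0.05.

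**Figure D4:**
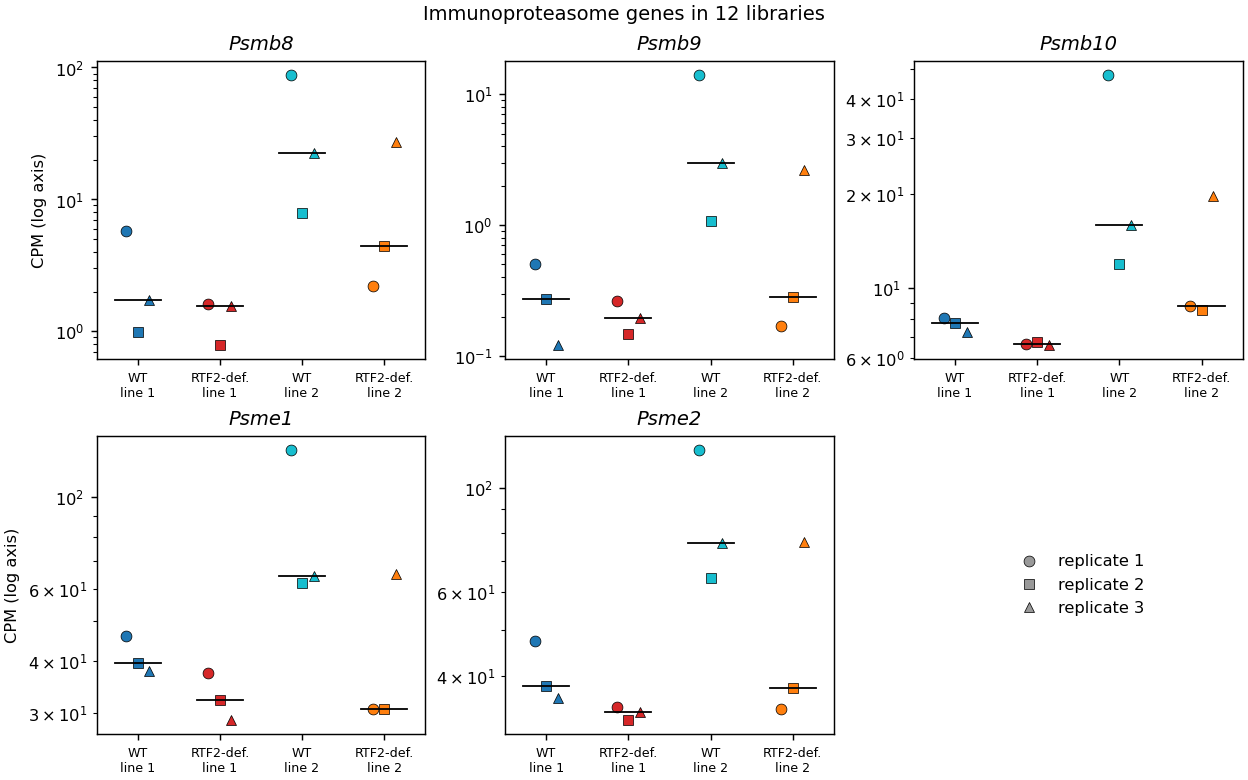
CPM of Psmb8, Psmb9, Psmb10, Psme1 and Psme2 in each library (points, shape by replicate number; line, group median), each on its own log axis. Replicate 1 of WT line 2 is the highest of the 12 libraries for every gene, at 88.3 CPM for Psmb8, and replicate 3 of RTF2-deficient line 2 lies above the other libraries of its group.

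Between the WT lines, 5 members were higher in line 2 and 0 were lower, against 6.70% and 7.31% of all genes, and all 5 also passed a log2 fold change of 1, against 3.89% of all genes. At an unadjusted p under 0.05 the members numbered 8 higher and 0 lower, against 28.1% of all genes in either direction, and DESeq2 called 7 higher and 0 lower, adding Psme1 and Psmf1, against 19.3%. The 5 were Psmb9 (4.33, adjusted p = 0.031 in edgeR's test), Psmb8 (3.81, adjusted p = 0.043), Psmb10 (1.72, adjusted p = 0.035), Psme2 (1.11, adjusted p = 0.033) and Psma8, the last of which entered the test only through WT line 2 and carries no weight in the count. Psme1 had 1.05 (adjusted p = 0.059, and 0.0096 with DESeq2). Each WT line 2 library lay above each WT line 1 library for 8 of the 51 members, the 5 immunoproteasome genes with Psma8, Psmf1 and Psme3ip1, against 15.1% of all genes. None of the 31 core and 19S genes was called, and their log2 fold changes between the WT lines lay between -0.07 and 0.19.
These calls moved with single libraries. Without WT line 1 replicate 2 or 3 or WT line 2 replicate 1, no immunoproteasome gene was called. Without WT line 1 replicate 1 Psmb8 alone was called of the 5, without RTF2-deficient line 1 replicate 2 Psmb9 alone, without WT line 2 replicate 3 Psmb9 and Psmb10, and without RTF2-deficient line 1 replicate 3 Psmb9 and Psme2. Psme1 was called without WT line 2 replicate 2 (1.24, adjusted p = 0.041 in edgeR's test) or RTF2-deficient line 2 replicate 3 (1.03, adjusted p = 0.020). The log2 fold changes without WT line 2 replicate 1 were 2.41 for Psmb8, 2.74 for Psmb9, 0.84 for Psmb10, 0.78 for Psme2 and 0.60 for Psme1. Same-numbered libraries deviated together in the WT groups as well, and with the number as a block in a fit of the WT libraries alone 6 members were higher and 0 were lower (0 at an unadjusted p under 0.05 too), against 8.68% and 8.87% of all genes. They were Psma8 and all 5 immunoproteasome genes, Psme1 with 0.96 (adjusted p = 0.011 in edgeR's test), whereas a block over the 12 libraries lost Psmb10 (1.59, adjusted p = 0.058). The lines differed in embryo sex as well, and line and sex cannot be told apart among the WT libraries.
Between the RTF2-deficient lines, 1 member was called, Psma8, against 1.94% of all genes. Psma8 entered the test only through WT line 2, so its call carries no weight in this count. The log2 fold changes of the immunoproteasome genes there were 3.09 for Psmb8 (adjusted p = 0.24 in edgeR's test), 2.34 for Psmb9, 0.89 for Psmb10, 0.57 for Psme2 and 0.36 for Psme1, and the sign of Psme1 turned without RTF2-deficient line 2 replicate 3 (-0.11).

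Expressed as the inducible share of each catalytic pair, per kb of transcript, Psmb8 made up 0.631 to 3.76% of Psmb8 and Psmb5 together in WT line 1 and 0.511 to 1.11% in RTF2-deficient line 1. In WT line 2 the shares were 40.9, 4.34 and 13.4%, and in RTF2-deficient line 2 they were 1.29 to 16.0% with a median of 2.85%. Psmb10 made up 4.09 to 5.31% of its pair with Psmb7 in WT line 1 and 6.16 to 25.1% in WT line 2. Psmb9 was at most 0.269% of its pair with Psmb6 in WT line 1 and reached 6.64% in WT line 2. Constitutive transcripts were thus in the majority for every pair in every library, and these are shares of transcripts, not of assembled particles.

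The genes around the immunoproteasome were examined with it. The 9 genes of the antigen presentation list, among them the peptide transporter genes Tap1 and Tap2 and the class I genes H2-K1 and H2-D1, had log2 fold changes between genotypes from -2.08 to -0.29. Of the 9, 0 were called by edgeR or DESeq2 and 1 had an unadjusted p under 0.05, against 28.5% of all genes for the last. Between the WT lines, 3 of the 9 were higher in line 2, H2-K1 (3.06), H2-D1 (2.34) and Tap2 (2.11), against 6.70% of all genes. At an unadjusted p under 0.05 there were 9, and DESeq2 called 8, against 28.1% and 19.3% of all genes in either direction. Of the 16 interferon-stimulated genes, 0 were called between genotypes by edgeR or DESeq2 and 0 had an unadjusted p under 0.05. All 16 had values below 0 (median -1.42), where 50.4% of all genes had values above 0. Between the WT lines 8 of the 16 were higher in line 2, against 6.70% of all genes. There 16 had an unadjusted p under 0.05 and DESeq2 called 15, against 28.1% and 19.3% of all genes in either direction. Leukocyte markers were low, with a sum over 8 genes of 2.63 to 4.06 CPM in WT line 1 and 7.28 to 11.6 CPM in WT line 2. The defining marker Ptprc had at most 0.122 CPM, and Cd3e had no count in any library, whereas Psmb8 reached 88.3 CPM. Cd68, a lysosomal protein of macrophages, made up most of that sum in WT line 2 (mean 6.72 CPM) and was the 1 of 4 leukocyte markers tested that was called between the WT lines (2.01, adjusted p = 0.00016 in edgeR's test), while Csf1r had -0.52. The 4 epithelial markers summed to 2.06 to 2.36 CPM in WT line 1 and to 6.75 to 9.53 CPM in WT line 2, with Krt18 (1.94, adjusted p = 0.0021) and Krt8 (3.52, adjusted p = 0.033) called higher and the defining marker Epcam at most 0.308 CPM. Krt8 was near the floor, at most 0.334 CPM in any library and 0.016 CPM on average in WT line 1, below the level of 3 counts. Of the 8 fibroblast markers, Pdgfrb (-0.94, adjusted p = 0.0038), Thy1 (-0.62, adjusted p = 0.018) and Col1a2 (-0.63, adjusted p = 0.035) were lower in WT line 2, Pdgfra (1.28, adjusted p = 0.082), S100a4 (1.18, adjusted p = 0.067) and Col3a1 (0.05) had values above 0, and the list summed to 16318 to 21127 CPM in WT line 1 and 13315 to 14346 CPM in WT line 2. Between genotypes, Cd68 was lower in line 2 (-1.07, adjusted p = 0.0081 in edgeR's test) and had 0.06 in line 1, Cd74 had -1.45 in line 2 (adjusted p = 0.27), and Csf1r (0.76) and Lyz2 (0.43) had values above 0 there. In both lines together Krt18 (0.74, adjusted p = 0.038) and the endothelial marker Kdr (0.58, adjusted p = 0.049) were higher, whereas Epcam had -0.34, Cdh1 -0.18 and the endothelial marker Tek -0.03. Leukocyte markers summed to 5.46 to 6.13 CPM in RTF2-deficient line 2. In RNA from whole cultures, more cells of a type and more RNA per cell cannot be told apart. The part of other cell types and of the interferon response in these differences was not tested.

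Within each group the library with the highest interferon score had the highest Psmb8 and Psmb9 and the lowest constitutive proteasome transcripts, a comparison made after the values were seen. These libraries were replicate 1 of WT line 1, RTF2-deficient line 1 and WT line 2 and replicate 3 of RTF2-deficient line 2. The 14 constitutive core genes summed to 1546 CPM in that library of WT line 1 against 1806 and 1868 CPM in the others, and to 1594 CPM in that of WT line 2 against 2099 and 1767 CPM. They summed to 1622 CPM against 1857 and 1864 CPM in RTF2-deficient line 1, and to 1746 CPM against 2104 and 1919 CPM in RTF2-deficient line 2. The 17 genes of the 19S particle followed, with 2572 CPM against 3009 and 3211 CPM in WT line 1 and 2688 CPM against 3372 and 3034 CPM in WT line 2.
The shift was shared by nearly all subunits. Of the 31 core and 19S genes, 31 were lowest in that library in WT line 1, 31 in WT line 2, 30 in RTF2-deficient line 1 and 28 in RTF2-deficient line 2, against 39.1%, 38.7%, 36.6% and 38.6% of all genes tested. In all 4 groups at once, 28 of the 31 were lowest there, against 15.7% of all genes. All 7 alpha ring genes and all 11 non-ATPase subunits of the 19S particle were among them, with 5 of 7 beta ring genes and 5 of 6 ATPases. The median log2 difference of the 31 from the mean of the other libraries was -0.27 in WT line 1, -0.22 in RTF2-deficient line 1, -0.26 in WT line 2 and -0.26 in RTF2-deficient line 2. Of the assembly chaperones, 4 of 7 were lowest in all 4 groups. Each of the 4 groups held 1 such library, and what set these libraries apart was not tested. Over all genes tested, the deviations of these 4 libraries from their group means correlated with one another at 0.31 to 0.65. The 4 groups are therefore not separate occurrences, and the subunits vary together as well. In RTF2-deficient line 1 the score itself ran only from 1.498 to 2.58.

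**Figure D5:**
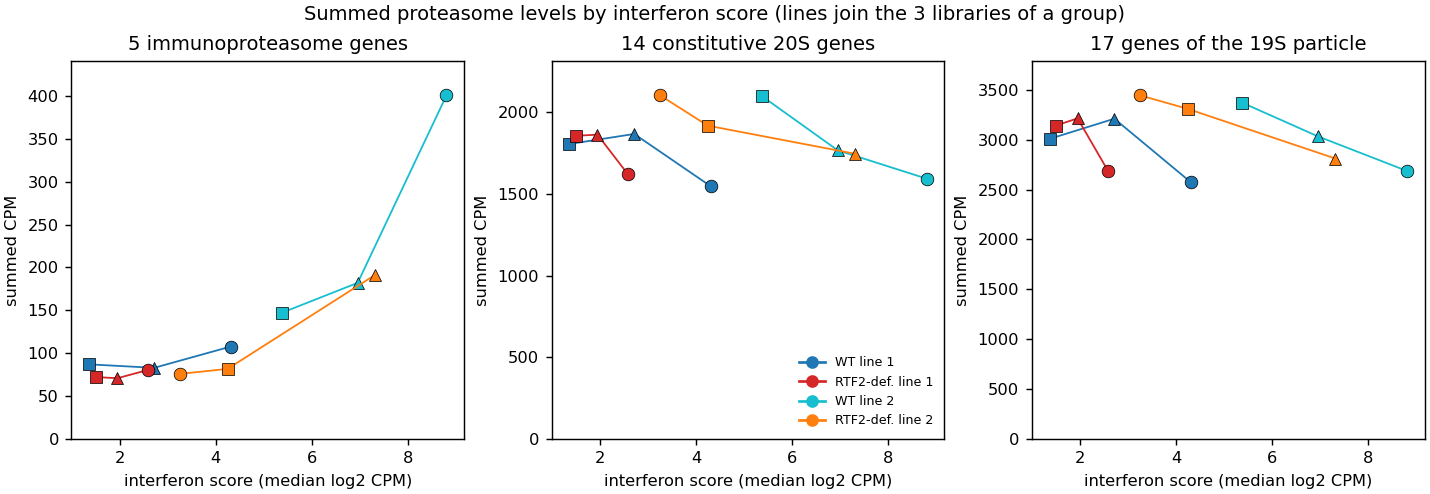
Summed CPM of the 5 immunoproteasome genes, the 14 constitutive core genes and the 17 genes of the 19S particle against the interferon score (median log2 CPM of 16 genes) in each library, with lines joining the 3 libraries of a group. The library with the highest score in each group has the lowest core and 19S sums, at 1546 to 1746 CPM for the core.

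Psma8 replaces an alpha subunit in the proteasome of male germ cells and was low throughout. It had 1, 1 and 2 counts in WT line 1, 4, 2 and 1 counts in RTF2-deficient line 1, 61, 43 and 47 counts in WT line 2 and 7, 11 and 19 counts in RTF2-deficient line 2. The libraries of WT line 2 lay above all others, and those of RTF2-deficient line 2 lay above all of line 1. Per total count, WT line 2 exceeded WT line 1 by 36.4 times (exact 95% interval of counting error 13.9 to 136), with 151 counts against 4, and RTF2-deficient line 2 by 3.91 times (2.71 to 5.76). RTF2-deficient line 2 exceeded RTF2-deficient line 1 by 5.43 times (2.39 to 14.5). These ratios are a description, because Psma8 was tested only through its level in WT line 2. Between the RTF2-deficient lines the log2 fold change in edgeR's test was 2.32 (adjusted p = 0.040). That fit shares its filter and its estimate of the spread with WT line 2, so this call carries no weight either. The call was lost without any 1 of 10 of the 12 libraries. In line 1 the log2 fold change between genotypes was 0.75 (adjusted p = 0.78). WT line 2 was also the group with Ddx3y, and sex, line and genotype cannot be told apart for its level there.

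The remaining activators gave no call between genotypes in both lines together. Psme3 had a log2 fold change of 0.08, Psme4, the PA200 activator, -0.09 and Psmf1 0.05. Psme2b, a copy of Psme2 without introns on chromosome 11 (48945345 to 48946410), had 2.43 to 11.6 CPM in the 6 WT and 5.05 to 11.2 CPM in the 6 RTF2-deficient libraries, and a log2 fold change of 0.78 (adjusted p = 0.15). In GENCODE M21 its model overlaps the gene Gm12185 by 837 bases on the same strand, and it may share reads with Psme2, so its values are uncertain. Psmb11 had a log2 fold change of 0.12 at 10 to 22 counts per library.

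Other genes of the proteasome system without a Psm symbol had small values as well. Of 10 such genes, 0 were called between genotypes by edgeR. An unadjusted p under 0.05 was found for 1 (Akirin2), which was above 0, and 1 was called higher by DESeq2, against 28.5% and 19.3% of all genes in either direction. Values above 0 were found for 9, against 50.4% of all genes, and the median log2 fold change was 0.11. Adrm1, a ubiquitin receptor of the 19S particle, had 0.00, Sem1, its smallest subunit, 0.12, and Pomp, which matures the core, 0.07. The deubiquitinases of the 19S particle had 0.22 (Usp14) and 0.26 (Uchl5), and Nfe2l1, the transcription factor that induces proteasome genes when the proteasome is inhibited, had 0.12 (adjusted p = 0.32 in edgeR's test). The core of the antioxidant response element, through which Nfe2l1 acts, was searched as TGANNNNGC on both strands. It was present in 25 of the 43 genes, at any of their starts, and in 41.3% of all promoters. The CCAAT box was present in 16 of the 43 genes and in 37.4% of all promoters. Here too, shares by gene stand beside shares by promoter.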

How the data were processed

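RNA from WT and RTF2-deficient MEFs was sequenced in 12 libraries. The authors deposited whole-number read counts for each gene in each library, under Entrez Gene numbers and without normalization. Salmon, tximport and UCSC mm10 gene models are named in the study's methods, and HTSeq and mm10 in the submitters' notes on processing. Whether RNA was selected by poly(A) or counted by strand is not given in the sources used here. Depth was alike in all groups, and intervals on counts cover counting error only.

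Symbols came from RefSeq and matched 24045 of 24100 genes. In R 4.3.3, genes passing filterByExpr were TMM-normalized and fitted with edgeR 4.0.16 (glmQLFit and glmQLFTest), line and genotype being the terms. Contrasts within and between lines came from a layout of the 4 groups. P-values were adjusted over all genes tested, and DESeq2 1.42.0 was an alternative. Pairs of libraries of a group differed by more than sampling noise, so all were kept. Deviations of same-numbered libraries from their group means correlated at 0.43 to 0.62 between the groups of line 1 and at 0.30 to 0.43 between the WT groups, so that the numbers pair these libraries. They did not in the other comparisons, at -0.59 to 0.17 in line 2 and -0.38 to 0.09 between the RTF2-deficient groups.

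Named genes were Rtf2, the immunoproteasome and constitutive catalytic genes, and in each comparison up to 5 members called lower and 5 called higher with the smallest adjusted p. Other members are given by role and were named after their values were seen. The members, the lists and the rule were chosen with earlier results of these data known. Fits of the paired groups alone with the replicate block, and of the WT libraries alone, were added after the data were seen. The other alternatives comprised DESeq2, normalization by RLE or the upper quartile, a filter of 1 CPM in 6 libraries or none, a replicate block, omission of the line term, summed triplicates, fits of 1 line and omission of single libraries.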

Additional observations from a re-analysis of the deposited data

How the results depend on the processing

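The number of members called between genotypes in both lines was 3 to 4 with single libraries left out, 5 with DESeq2 (2702 genes called in all) and 0 with summed triplicates, which leave 4 samples. Psmc5, Psmg3 and Psmg4 were called in every fit but the summed one. In line 1 the count was 0 with any library left out, 1 (Psmg4) with DESeq2 (861 genes in all) or the filter of 1 CPM (467) and 15 with the replicate block in a fit of line 1 alone (3985). In line 2 it was 5 with DESeq2 (2596) and 2 to 6 with single libraries left out, with 2372 genes in all where it was 6. Between the WT lines it was 3 with the filter of 1 CPM (1704), which removes Psma8 and Psmb9, 3 with the WT libraries alone (1258), 7 with DESeq2 (2748) and 6 with the WT libraries alone and the replicate block. With single libraries left out it was 1 to 6, with 1260 to 1843 genes in all where it was 1 to 3. Between the RTF2-deficient lines it was 0 with the filter of 1 CPM (234) and 0 to 1 with single libraries left out, with 119 to 301 genes in all where it was 0. The difference between the lines had 0 calls in each fit. The cause of these shifts was not tested beyond what each alternative removes.

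Replicate numbers pair the libraries within line 1 and between the WT lines, where all 3 pairs correlated above 0.1, and not in line 2 or between the RTF2-deficient lines. The libraries of RTF2-deficient line 2 correlated instead with other numbers, replicate 3 with the libraries numbered 1 (0.51 to 0.65), replicate 1 with those numbered 2 (0.40 to 0.61) and replicate 2 with those numbered 3 (0.33 to 0.38). The labels give no such correspondence, and no fit was made with shifted numbers. With the replicate block over all 12 libraries the counts were 3 in both lines, 0 in line 1, 3 in line 2, 4 between the WT lines and 0 between the RTF2-deficient lines, the last against 1 without it, and of the named genes only Psmb10 between the WT lines and Psma8 between the RTF2-deficient lines lost a call.

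Among the values of single named genes, 803 stayed on their side of the threshold with the same sign, 47 fell short of it, 19 passed it and 11 turned sign, none of these called. The sign of Psmb5 in both lines turned to 0.000536 with RLE and with DESeq2, to 0.00261 without a filter and to above 0 without WT line 1 replicate 3, WT line 2 replicate 2, RTF2-deficient line 1 replicate 1 or RTF2-deficient line 2 replicate 3, over a range of -0.052 to 0.044 with single libraries left out. That of Psmb9 in line 1 turned to 0.051 without WT line 1 replicate 1 (range -0.94 to 0.051). The differences between lines of Psmb8 (0.66, range -2.47 to 0.66) and Psmb10 (0.027, range -1.32 to 0.027) turned without WT line 2 replicate 1, and Psme1 between the RTF2-deficient lines turned to -0.11 without RTF2-deficient line 2 replicate 3 (range -0.11 to 0.54). Depth limits Psma8, Psmb9 and Psmb11, which had few counts, and the spread within groups limits the immunoproteasome genes.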
